A study of Mus musculus with 4 samples.

Results

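The 9 genes described here are *Epcam*, *Trp63*, *Pax1*, *Pax9*, *Eya1*, *Tbx1*, *Hoxa3*, *Plet1* and *Ly6a*, which are known for the epithelial identity of the thymus, for its formation in the embryo and for its epithelial progenitors. They were chosen by name, not by their values, out of 23337 genes listed in the deposited count table, but with earlier results of these data known. All 9 were found, 8 of them under the current symbol and *Plet1* under its older symbol 1600029D21Rik, and all 9 were among the 18547 genes that passed the filter on low counts. RNA was measured by sequencing in medullary thymic epithelial cells (mTECs) from 4-week-old C57BL/6 mice, with 2 WT libraries and 2 *Sirt6* cKO libraries, as the labels call them. The *Sirt6* cKO mice carried loxP-flanked *Sirt6* alleles and a Cre driven by *Foxn1*, a gene of thymic epithelium, and the labels give their genotype as *Sirt6*-/-. The WT mice were littermates without Cre or age-matched mice. In both groups the cells were sorted as CD45-, EpCAM+, UEA-1+ and Ly51-, so that the protein product of *Epcam* was itself a gate of the sort. The sources describe the 2 libraries of a group as independent parallel samples but do not say how many mice each held, so p-values measure only the spread between these libraries. The comparison asks whether the RNA of these identity and progenitor genes differed in mTECs when *Sirt6*, a chromatin-bound deacetylase, was targeted in thymic epithelium.

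The epithelium of the thymus arises from endoderm of the third pharyngeal pouch. There *Hoxa3*, *Pax1*, *Pax9*, *Eya1* and *Tbx1* encode transcriptional regulators that pattern the pouch or the early organ, and *Foxn1* then drives epithelial differentiation. The p63 protein, encoded by *Trp63*, maintains the proliferative capacity of stratified and thymic epithelium. The surface proteins encoded by *Plet1* and *Ly6a* have served to mark progenitors, and EpCAM is the adhesion molecule by which thymic epithelial cells are usually recognised.

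The libraries held between 61102704 and 65907745 counts, over 18608 to 19475 genes with a count. The targeted gene *Sirt6* had 622 and 755 counts in the WT pair and 882 and 835 in the *Sirt6* cKO pair. Values of the 2 libraries of a group are given in the order replicate 1, replicate 2. The mean of *Sirt6* was higher in the group labelled *Sirt6* cKO, where a lower one would follow only if the deletion lowered the whole-gene count (10.7 ± 1.67 counts per 1000000 (CPM) in WT and 13.8 ± 1.13 in *Sirt6* cKO, SD, n = 2 each). It gave a log2 fold change of 0.37 with a 95% interval of -0.43 to 1.18 (edgeR adjusted p = 0.80). A count over the whole gene does not show whether part of it is deleted, so the labels could not be checked in this way, and every direction given here compares libraries by their labels. Of 18547 genes tested with edgeR, 977 were higher in *Sirt6* cKO at an unadjusted p of 0.05 (5.27%), 615 were lower (3.32%) and 1 passed an adjusted p of 0.05 (0.00539%). DESeq2 called 5.8% of its 20997 genes higher and 4.38% lower at the same unadjusted p, and 354 genes passed an adjusted p of 0.05 with it. The share of edgeR calls that were higher was 61.4% with TMM normalization, 48.4% when scaled by the upper quartile and 46.2% when scaled by library size, under which the median of all genes shifted by less than 0.1 on the log2 scale.

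The 9 mature mTEC markers summed to between 31167 and 34864 transcripts per 1000000 (TPM), nearly all of it from the MHC class II genes *H2-Aa* and *H2-Ab1*, which dendritic cells and B cells also express. The other 7 summed to 1705 and 1743 TPM in WT and to 1779 and 2504 in *Sirt6* cKO, and 2 of them, *Aire* (log2 fold change 0.65) and *Cd80* (0.94), were higher at an unadjusted p of 0.05. The 8 markers of cortical epithelium summed to between 1547 and 1817 TPM, most of it *Tbata* (mean 1172 TPM). Of these 8, *Ly75* (log2 fold change 1.14) and *Dll4* (1.08) were higher at an unadjusted p of 0.05, 0 were lower and 4 were negative. *Enpep*, which encodes the Ly51 protein excluded by the sort, had a mean of only 9.65 TPM. RNA of other cells was present in both groups. The summed TPM of 11 thymocyte markers was 835 to 1579, of 4 B cell markers 162 to 244, of 8 fibroblast markers 615 to 726 and of 5 endothelial markers 40.2 to 68.2. The 8 macrophage and dendritic cell markers summed to 9766 TPM in WT 1 and 6095 in WT 2, but to 3768 in *Sirt6* cKO 1 and 4081 in *Sirt6* cKO 2, most of it *Lyz2*, the lysozyme of myeloid cells. The 6 tuft cell markers, 4 of them lower at an unadjusted p of 0.05, summed to 512 and 597 TPM in WT and to 250 and 257 in *Sirt6* cKO. Of this, *Gnb3* made 326 and 385 TPM in WT and 126 and 142 in *Sirt6* cKO. The other 2 markers, *Dclk1* (log2 fold change 0.36) and *Pou2f3* (0.24), were positive and did not pass. The 5 markers of *Ccl21a*-positive mTECs summed to 1459 and 3529 in WT and 817 and 861 in *Sirt6* cKO. Of this, *Ccl21a* alone made 1258 and 3154 TPM in WT and 346 and 497 in *Sirt6* cKO, and the other 4 summed to 201 and 375 in WT and to 471 and 364 in *Sirt6* cKO. The 10 proliferation genes followed the replicate number instead of the group, with 794 and 769 TPM in the libraries numbered 1 and 388 and 325 in those numbered 2. The calls in these marker lists stand beside 5.27% of all genes tested that were higher and 3.32% that were lower. No marker of these lists was at 0 in any library. In sorted populations of this kind, fewer cells of a type and less RNA per cell cannot be told apart.

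Per length, *Epcam* had the highest mean over the 4 libraries (973 TPM, rank 102 of all genes), followed by *Plet1* (162 TPM, rank 1103) and *Ly6a* (122 TPM, rank 1533). The ranges of these genes over the libraries did not touch each other, nor did those of *Ly6a* and the next gene. *Pax9* (35.7 TPM), *Trp63* (25.1 TPM), *Pax1* (20.4 TPM) and *Eya1* (17.5 TPM) formed a middle group in which each gene's range overlapped that of its neighbour. *Tbx1* (1.11 TPM, rank 16104) and *Hoxa3* (0.548 TPM, rank 17600) lay far below, and their ranges overlapped. The genes of surface proteins used to recognise thymic epithelium or to mark its progenitors were thus the members with the most RNA per length. The RNA of the pouch regulators ranged from moderate to nearly undetected.

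**Figure D1:**
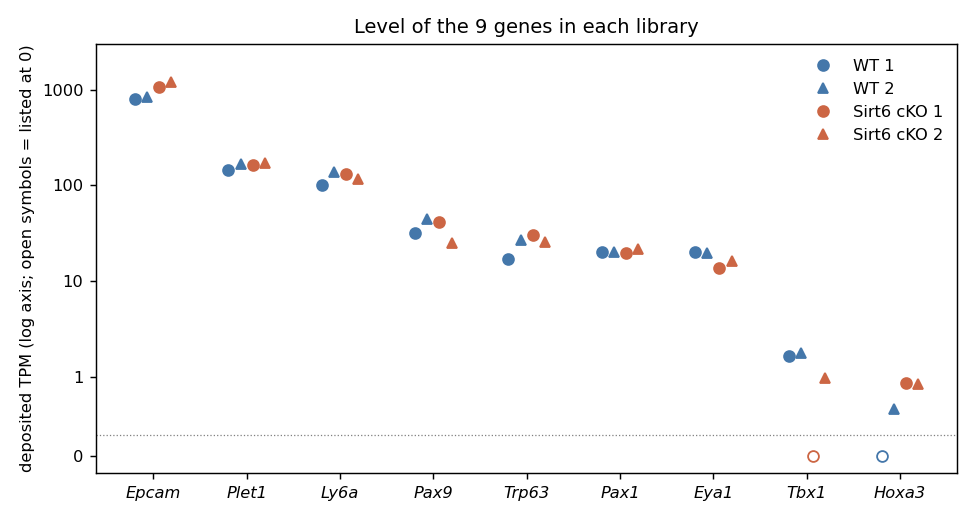
Deposited TPM of the 9 genes (log axis) in each of the 4 libraries, WT in blue and *Sirt6* cKO in orange, with open symbols for libraries at 0. *Epcam* lies between 798 and 1201 TPM in all 4 libraries, whereas *Tbx1* and *Hoxa3* each have 1 library at 0 and none above 1.78 TPM.

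*Epcam*, at chr17:87635979-87651129 on the plus strand (GRCm38), was the only one of the 9 genes past the unadjusted threshold. Its protein was a gate of the sort in both groups alike. It had 49643 and 49078 counts in the WT pair and 60549 and 72374 in the *Sirt6* cKO pair. Both *Sirt6* cKO libraries lay above both WT libraries, and the WT libraries were nearly equal. The mean was 765 ± 9.05 CPM in WT and 1066 ± 88.5 CPM in *Sirt6* cKO (SD, n = 2 each), and 816 ± 26.0 and 1130 ± 99.1 on the TPM scale. The log2 fold change was 0.48 (SE 0.14, 95% interval 0.12 to 0.84), or 1.39-fold with an interval of 1.09 to 1.79. The edgeR p was 0.0182 before and 0.54 after adjustment over all genes, and DESeq2 gave 0.0207 and 0.293, so the difference did not pass correction. It kept an unadjusted p between 0.0192 and 0.0487 under 8 alternatives that used all 4 libraries. The p rose to 0.0855 without WT 1, to 0.0584 without WT 2 and to 0.106 without *Sirt6* cKO 2, and was 0.0259 without *Sirt6* cKO 1. No exact permutation test of 2 libraries against 2 can give a p below 0.333. Of the 8 macrophage and dendritic cell markers, 7 had a negative log2 fold change between the same libraries and *Zbtb46* a positive one (0.56). *Lyz2* (-1.02), *Cd68* (-1.25) and *Adgre1* (-1.12) were lower at an unadjusted p of 0.05, and the other 5 did not pass. The part of these markers in the *Epcam* difference was not tested.

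The immediate upstream sequence of *Epcam* is shown with that of *Plet1*, because these were the 2 most abundant members. Whether their log2 fold changes differ from each other was not tested. Each window holds the 250 bases before the start of the gene in RefSeq (GRCm38.p6), 5′ to 3′ on the plus strand, with searched motifs in capitals. They are chr17:87635729-87635978 for *Epcam* and chr9:50494275-50494524 for *Plet1*.
Epcam: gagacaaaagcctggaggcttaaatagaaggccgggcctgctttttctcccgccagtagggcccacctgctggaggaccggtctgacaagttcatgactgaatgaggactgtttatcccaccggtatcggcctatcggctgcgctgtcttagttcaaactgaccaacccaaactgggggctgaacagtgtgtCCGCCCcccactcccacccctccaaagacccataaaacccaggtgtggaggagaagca
Plet1: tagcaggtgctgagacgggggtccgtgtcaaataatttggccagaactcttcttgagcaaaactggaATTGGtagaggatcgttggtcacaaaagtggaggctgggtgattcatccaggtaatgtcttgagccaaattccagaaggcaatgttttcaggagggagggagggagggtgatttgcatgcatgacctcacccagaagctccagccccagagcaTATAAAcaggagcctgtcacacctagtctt
The motifs searched on both strands were the TATA box (letters TATAAA), the GC box (letters GGGCGG), the CCAAT box and the E-box (letters CACGTG). An ETS site of the PU.1 type (letters GAGGAA) was also searched, which is longer than the core that ETS factors share. No match overlapped another in these windows. The *Epcam* window held the GC box on the other strand, 58 to 53 bases before the start, and none of the other motifs. The *Plet1* window held the TATA box 30 to 25 bases before the start and the CCAAT box on the other strand, 183 to 179 bases before it. Among 32851 windows of this length, 12.4% held the TATA box, 32.7% the GC box, 33.8% the CCAAT box, 6.02% the E-box and 23.3% the ETS site. GC content was 56.4% in the *Epcam* window, against a median of 52.4%, and the windows held 8 CpG for *Epcam* and 3 for *Plet1*, against a median of 6. The windows of 6 of the 9 genes were matched in this table.

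*Plet1*, at chr9:50494525-50505482 on the plus strand, encodes a surface antigen of embryonic thymic epithelial progenitors. It had 8117 and 8869 counts in the WT pair and 8302 and 9373 in the *Sirt6* cKO pair, and the groups overlapped. Its mean was 132 ± 10.9 CPM in WT and 142 ± 6.07 CPM in *Sirt6* cKO (SD, n = 2 each). Its log2 fold change of 0.11 had an interval of -0.34 to 0.56, which leaves room for a ratio between 0.788 and 1.47. Of its exonic bases, 13.4% also lie in exons of the antisense gene *Plet1os*, which the count table does not list. Whether the counting used strand is not given in the sources used here. The TPM ratio of *Epcam* to *Plet1* was 5.48 and 4.96 in the WT pair and 6.53 and 6.92 in the *Sirt6* cKO pair, without overlap between the groups. Groups also did not overlap in CPM for 41.9% of all genes tested, *Epcam* among them, and the ratio was not tested.

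*Ly6a*, at chr15:74994877-74998031 on the minus strand, encodes the stem cell antigen Sca-1 and is induced by interferon in many cells. It had 2524 and 3241 counts in the WT pair and 3043 and 2812 in the *Sirt6* cKO pair, so that both *Sirt6* cKO libraries lay between the WT libraries. The mean was 44.7 ± 8.75 CPM in WT and 47.1 ± 4.65 CPM in *Sirt6* cKO (SD, n = 2 each), and the log2 fold change was 0.07 with an interval of -0.58 to 0.73. The sign turned when libraries were scaled by the upper quartile or by their size alone. *Ly6a* shares 10.04% of the 50-base words of its longest transcript with 4 other genes, most with *Ly6c1* (4.42%), so its count is uncertain to that extent. TPM of *Plet1* exceeded that of *Ly6a* by a ratio of 1.44 and 1.23 in the WT pair and of 1.22 and 1.495 in the *Sirt6* cKO pair.

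*Trp63*, at chr16:25683763-25892102 on the plus strand, had 2495 and 3696 counts in the WT pair and 4189 and 3532 in the *Sirt6* cKO pair. The lowest library was WT 1, and *Sirt6* cKO 2 lay below WT 2, so the groups overlapped. The mean was 48.1 ± 14.1 CPM in WT and 62.2 ± 10.1 CPM in *Sirt6* cKO (SD, n = 2 each). Its log2 fold change of 0.37 (interval -0.38 to 1.12) depended on single libraries, being 0.07 without WT 1 and 0.71 without WT 2.

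**Figure D2:**
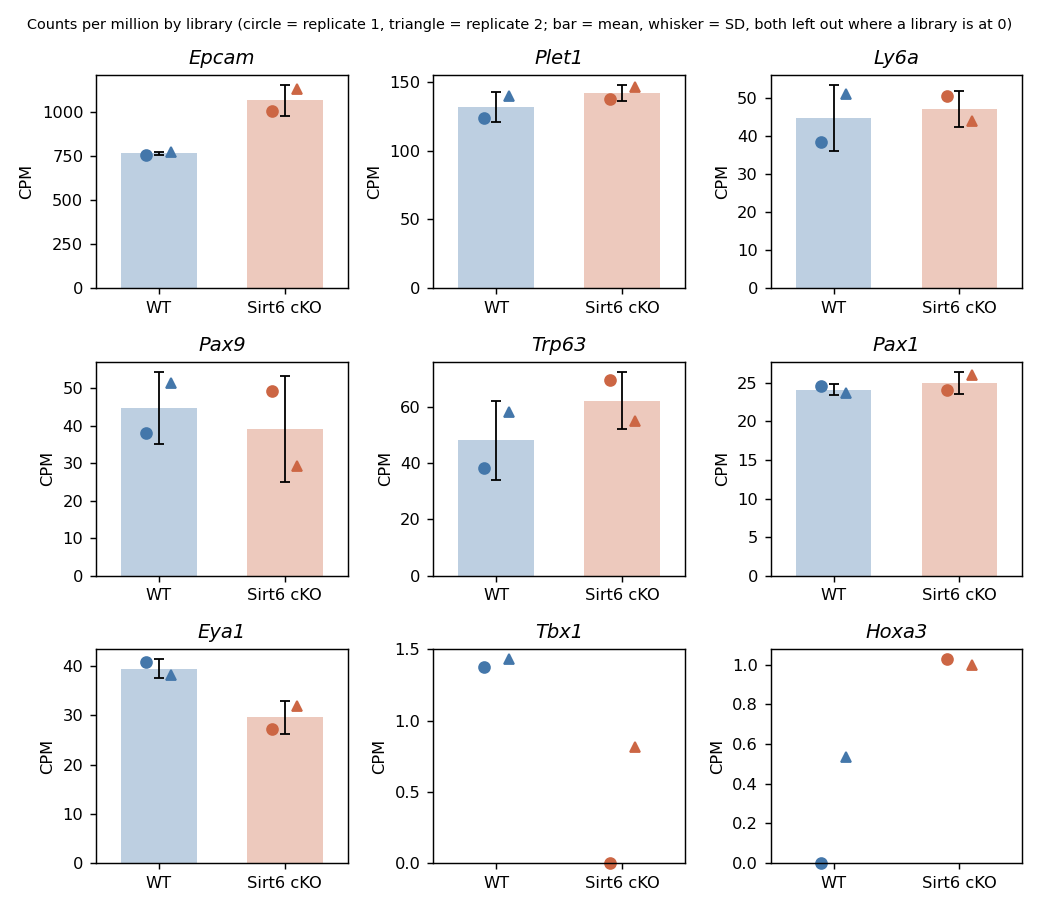
CPM of each of the 9 genes in every library, circles for replicate 1 and triangles for replicate 2, with bars for the group mean and whiskers for the SD, both left out for *Tbx1* and *Hoxa3*, which have a library at 0. The groups are separate for *Epcam*, *Eya1*, *Tbx1* and *Hoxa3* and overlap for the other 5 genes.

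The paired-box genes *Pax1* and *Pax9*, whose products act in the pouch endoderm, did not pass the test. *Pax1* (chr2:147361925-147393295, plus strand) had 1612 and 1506 counts in the WT pair and 1450 and 1668 in the *Sirt6* cKO pair. Its mean was 24.1 ± 0.68 CPM in WT and 25.01 ± 1.40 CPM in *Sirt6* cKO (SD, n = 2 each). The log2 fold change was 0.05, with an interval of -0.60 to 0.70, and was slightly negative under both of these scalings. *Pax9* (chr12:56691767-56712822, plus strand) had 2480 and 3275 counts in the WT pair and 2967 and 1872 in the *Sirt6* cKO pair. The replicates of *Pax9* differed more within each group than the group means of 44.7 ± 9.60 CPM in WT and 39.2 ± 14.1 CPM in *Sirt6* cKO did (SD, n = 2 each). Its log2 fold change of -0.19 (interval -1.06 to 0.68) became 0.05 without WT 2, 0.10 without *Sirt6* cKO 2 and -0.61 without *Sirt6* cKO 1. *Pax9* was above *Pax1* per length in every library, with TPM ratios of 1.58 and 2.23 in the WT pair and 2.098 and 1.15 in the *Sirt6* cKO pair. Exons of *Pax9* share 189 bases with *Slc25a21* on the opposite strand, and those of *Pax1* share 183 bases with the antisense gene *AI646519*.

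*Eya1*, at chr1:14168954-14310235 on the minus strand, encodes a phosphatase and transcriptional coactivator that acts in the pouch. It had 2675 and 2428 counts in the WT pair and 1641 and 2052 in the *Sirt6* cKO pair. Both *Sirt6* cKO libraries lay below both WT libraries. The mean was 39.5 ± 1.92 CPM in WT and 29.6 ± 3.40 CPM in *Sirt6* cKO (SD, n = 2 each). The log2 fold change was -0.42 (SE 0.25, interval -1.04 to 0.21), with an edgeR p of 0.149 before and 0.70 after adjustment. It stayed between -0.57 and -0.30 under 12 alternatives and passed the unadjusted threshold under none of them. The other members of the family gave log2 fold changes of -0.06 for *Eya2*, -0.09 for *Eya3* and 0.03 for *Eya4*, and none passed the test.

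*Tbx1* and *Hoxa3* were the least abundant members, each with a library at 0. *Tbx1*, the T-box gene of the pharyngeal apparatus (chr16:18580979-18590671, minus strand), had 90 and 91 counts in the WT pair and 0 and 52 in the *Sirt6* cKO pair. *Hoxa3* (chr6:52169062-52213336, minus strand) had 0 and 34 counts in the WT pair and 62 and 64 in the *Sirt6* cKO pair. The *Tbx1* counts were thus lower in the *Sirt6* cKO libraries and those of *Hoxa3* higher, each without overlap. A count of 0 allows up to 3 counts, or 0.0458 CPM in WT 1 and 0.0497 CPM in *Sirt6* cKO 1, for counting error only. Such zeros were not peculiar to these genes, since 361 genes had 0 counts in 1 library and at least 30 in each of the other 3, of which 43 had their 0 in WT 1 and 87 in *Sirt6* cKO 1. The fitted log2 fold change was -1.78 for *Tbx1* (interval -6.92 to 3.35) and 1.92 for *Hoxa3* (interval -3.33 to 7.16), so the libraries did not resolve a direction. Without the library at 0, these values became -0.79 for *Tbx1* and 0.90 for *Hoxa3*. With the library at 0 as the only one of its group, each passed the unadjusted threshold (*Tbx1* without *Sirt6* cKO 2 and *Hoxa3* without WT 2), with the lone library taken to vary like the other group. *Hoxa3* also shares 26.3% of the 50-base words of its longest transcript with 4 other genes, mostly *Hoxaas2* on the opposite strand (17.9%), which the count table does not list.

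Of the 9 genes, 1 was higher and 0 lower at the unadjusted p of edgeR, against 5.27% and 3.32% of all genes tested. DESeq2 gave the same 1 and 0, against 5.8% and 4.38%. By either tool 0 passed an adjusted p of 0.05. The groups did not overlap for 4 of the 9 (*Epcam*, *Eya1*, *Tbx1* and *Hoxa3*), against 41.9% of all genes tested, a share near the background. The log2 fold change was positive for 6 and negative for 3, with a median of 0.07 against -0.0047 over all genes.

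**Figure D3:**
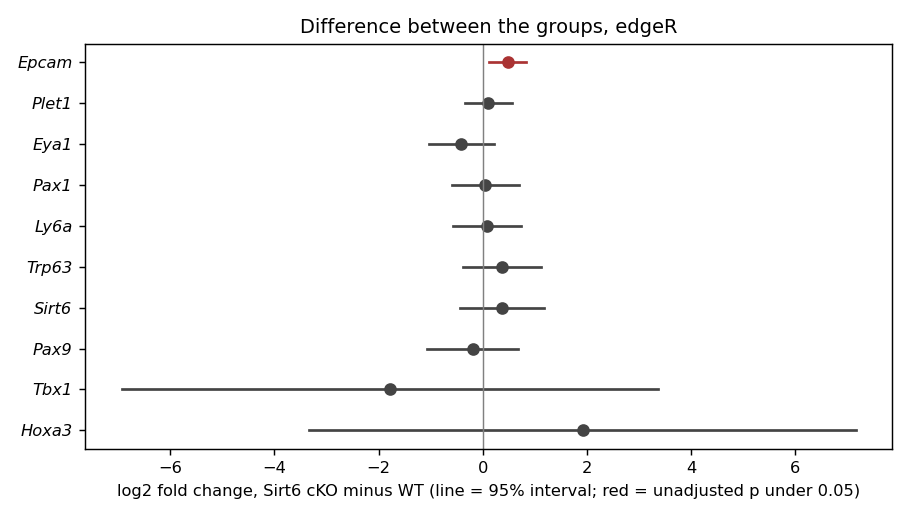
Log2 fold change of the libraries labelled *Sirt6* cKO against WT for the 9 genes and *Sirt6*, with 95% intervals, ordered by standard error. The interval of *Epcam* (0.12 to 0.84) lies above 0, and those of the other 8 genes and of *Sirt6* span 0, widest for *Tbx1* and *Hoxa3*.

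The genes that act with the pouch regulators were described by a list of 24 genes of pharyngeal pouch patterning and thymus organogenesis, of which 22 were tested. In this list 1 was higher and 0 were lower, against 5.27% and 3.32% of all genes, and the median log2 fold change was -0.06. The gene that passed was *Foxn1*, the master regulator of thymic epithelial differentiation and the gene whose promoter drives the Cre of the *Sirt6* cKO mice. *Foxn1* had 8984 and 10545 counts in the WT pair and 17098 and 16415 in the *Sirt6* cKO pair, with both *Sirt6* cKO libraries above both WT libraries. Its mean rose from 151 ± 20.1 to 270 ± 19.3 CPM (SD, n = 2 each), a log2 fold change of 0.83 (SE 0.18). *Foxn1* did not pass correction with edgeR (adjusted p = 0.54) and had an unadjusted p of 0.00046 with DESeq2. It passed the unadjusted threshold under all 12 alternatives. *Gcm2*, the parathyroid regulator, had 0 counts in both WT libraries and 8 and 89 in *Sirt6* cKO 1 and 2, and *Nog* had 0 in every library, so neither passed the filter on low counts. *Gcm2* was tested only where that filter was not used, and was then higher at an unadjusted p of 0.05 with edgeR and with DESeq2, which made 2 higher genes in the list under either.

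Paralogues of the 9 genes gave 3 higher and 0 lower of 25 tested, against 5.27% and 3.32% of all genes. The number lower was 1 with DESeq2, with the filter of TPM over 0.1 in all libraries and with limma on log2(TPM + 0.1). It was 2 with limma on log2(TPM + 1). *Tbx3*, a T-box gene, was higher (29.99 ± 0.15 CPM in WT, 53.7 ± 5.21 in *Sirt6* cKO, SD, n = 2 each). *Hoxd3*, the paralogue of *Hoxa3* in the HoxD cluster, had 200 and 119 counts in the WT pair and 609 and 407 in the *Sirt6* cKO pair (log2 fold change 1.74, SE 0.52). *Hoxa5*, beside *Hoxa3* in its cluster and named after its values were seen, had 67, 38, 4 and 0 counts in the same order, the reverse direction, and did not pass the test.

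In the list of 24 epithelial identity genes, 8 were higher and 0 lower, against the 5.27% of all genes that were higher. The median log2 fold change was 0.46, and 19 of the 24 were positive. *Elf3*, an epithelial transcription factor, rose from 88.0 ± 5.57 to 264 ± 2.07 CPM (SD, n = 2 each), with a log2 fold change of 1.58 (SE 0.17). Its adjusted p was 0.25 with edgeR, and its unadjusted p with DESeq2 was 2.12e-13. *St14*, the membrane protease matriptase, gave a log2 fold change of 0.77 (SE 0.18, DESeq2 unadjusted p = 0.00052). A further 5 higher genes, named after their values were seen, were the adhesion genes *Cdh1* (0.82) and *Jup* (1.04), the transcription factors *Ovol1* (0.62) and *Ehf* (0.45) and the protease inhibitor *Spint2* (0.53). *Krt18*, the simple-epithelium keratin and the most abundant of the list, was at 1987 ± 366 CPM in WT and 1502 ± 137 in *Sirt6* cKO and did not pass the test. It was lower at an unadjusted p of 0.05 when scaled by the upper quartile or by library size, with the replicate block and without WT 1. The number higher was sensitive to single libraries, with 3 without WT 1, 9 without WT 2, 4 without *Sirt6* cKO 1 and 2 without *Sirt6* cKO 2, and was 5 when scaled by the upper quartile and 4 when scaled by library size. The 8 macrophage and dendritic cell markers, 3 of them lower, summed to 9766 and 6095 TPM in WT and to 3768 and 4081 in *Sirt6* cKO, and their part in this count was not tested.

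The list of 20 genes of basal epithelium and the p63 programme gave 4 higher and 0 lower, against 5.27% and 3.32% of all genes, with a median of 0.42 and 18 positive. *Perp*, a desmosomal target of p63, rose from 554 ± 82.2 to 908 ± 16.8 CPM (SD, n = 2 each). *Lama3*, a laminin chain of the basement membrane, gave a log2 fold change of 0.84 (SE 0.25), and *Col17a1*, named after its value was seen, gave 0.90. *Sfn*, the most abundant gene of the list, had a log2 fold change of 0.30 (SE 0.14) and did not pass. The number higher was 2 without WT 1, 9 without WT 2, 3 without *Sirt6* cKO 1 and 1 without *Sirt6* cKO 2, and was 3 under either other scaling. With the replicate block 1 gene was lower, *Jag2*, named after its value was seen. Of the 8 macrophage and dendritic cell markers, 3 were lower, opposite to this list and to the epithelial identity genes, and their part was not tested. *Trp63* itself was not among the genes that passed.

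**Figure D4:**
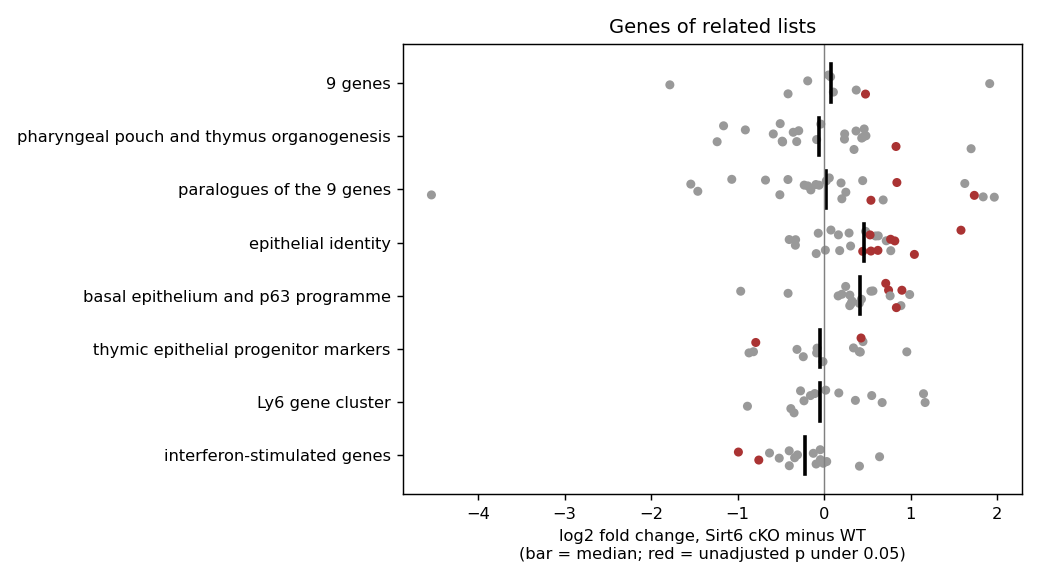
Log2 fold change of the 9 genes and of the tested genes of 7 related lists, with bars at each median and red points for an unadjusted edgeR p under 0.05. The medians of the epithelial identity list (0.46) and of the basal epithelium list (0.42) lie highest, and that of the interferon-stimulated list (-0.22) lowest.

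Among 14 markers of thymic epithelial progenitors, 1 was higher and 1 lower, against 5.27% and 3.32% of all genes. The number lower was 2 with DESeq2, under either other scaling, with the replicate block and without WT 1, and 3 without *Sirt6* cKO 2, and under each of these the number higher was 0. *Krt19*, a keratin of simple and progenitor epithelium, fell from 343 ± 40.4 to 198 ± 17.9 CPM (SD, n = 2 each), a log2 fold change of -0.79 (SE 0.18, edgeR adjusted p = 0.54) that passed the unadjusted threshold under all 12 alternatives. *Sox9*, a transcription factor of epithelial progenitors, gave 0.43 (SE 0.17), and its call was lost with DESeq2 and with most other alternatives. *Cldn4*, a claudin that marks early mTEC progenitors and the most abundant gene of the list, gave 0.34 (SE 0.19) and did not pass.

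The genes beside *Ly6a* in the Ly6 cluster gave 0 calls in either direction among 14 tested, at unadjusted or adjusted p of edgeR and by DESeq2. With limma, 1 of them was higher on either log2 TPM scale and 1 was lower on log2(TPM + 0.1). *Ly6e*, the most abundant of them, gave a log2 fold change of -0.27 (SE 0.16). Of 16 interferon-stimulated genes, 0 were higher and 2 were lower, and 13 were negative, with a median of -0.22. *Ifit3* (-0.99, SE 0.26) and *Ifit2* (-0.76, SE 0.29), antiviral effectors, were the pair that passed. The call of *Ifit2* was lost with the replicate block and without WT 1, WT 2 or *Sirt6* cKO 1, whereas that of *Ifit3* held under all 12 alternatives. *Usp18*, the most abundant, gave -0.09. In the interferon-stimulated list 1 gene was higher with DESeq2, and 3 were lower when scaled by the upper quartile or by library size. The 7 lists together held 132 tested genes apart from the 9, of which 16 were higher and 3 lower, against 5.27% and 3.32% of all genes.

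The genes whose pattern over the 4 libraries was most like that of the 3 members with the highest mean CPM were found among 10409 genes with at least 10 CPM, by the root-mean-square difference of centred log2 CPM. For *Epcam* they were *Ubxn6* (0.0128), *Sbno1* (0.0143) and *Hltf* (0.0149). For *Plet1* they were *Qars* (0.0145), *Zfp35* (0.0157) and *Rab11a* (0.0182). For *Trp63* they were *Ipo7* (0.0197), *Chdh* (0.0207) and *Mapk8ip3* (0.0209). With only 4 libraries, many genes follow any given pattern closely.

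**Figure D5:**
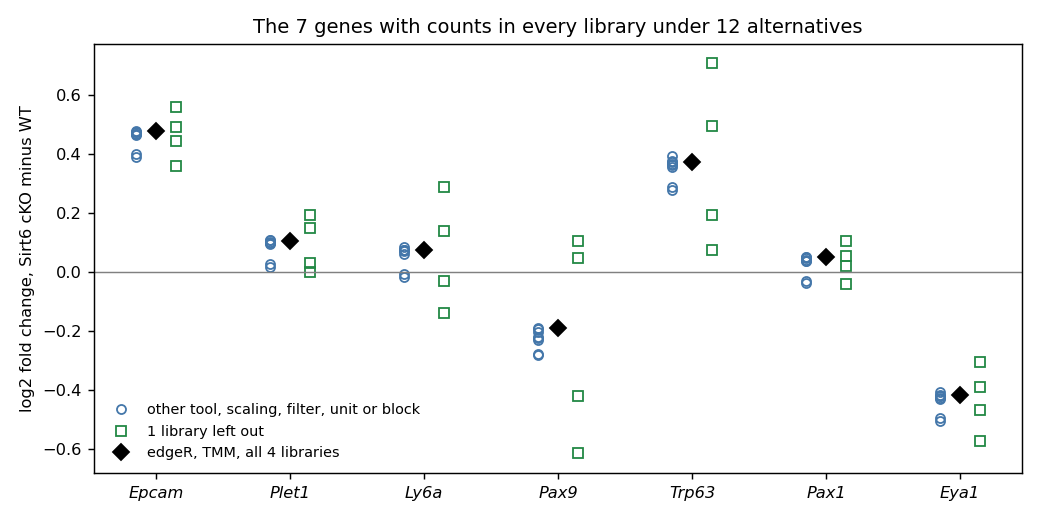
Log2 fold change of the 7 genes with counts in every library, with diamonds for the edgeR fit, circles for other tools, scalings, filters, units or the replicate block, and squares with 1 library left out. *Epcam* stays between 0.36 and 0.56 and *Eya1* between -0.57 and -0.30, whereas *Ly6a*, *Pax1* and *Pax9* fall on both sides of 0.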

How the data were processed

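RNA of sorted mTECs was sequenced in 4 libraries, 2 per group. Before deposit the authors removed adaptors (Trim Galore), mapped reads to mm10 (HISAT2 2.1.0) and quantified genes (StringTie 1.3.3), versions as in the submitters' processing notes. The deposited count table holds whole-number counts without normalization. The deposited TPM tables hold StringTie's transcripts per 1000000 (TPM), with 1 closing line per table that names no gene and equals 100% of the sum of the genes, which was left out. The gene annotation and the strand setting are not given in the sources used here.

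Counts were tested with edgeR 4.0.16 (TMM, filterByExpr with count and total minima of 10 and 15, quasi-likelihood test) in R 4.3.3, on 18547 genes, with Benjamini-Hochberg adjustment. The biological coefficient of variation was 0.557. CPM were scaled with the TMM factors. SE and 95% intervals of log2 fold changes were derived from the fold change and the F statistic of the quasi-likelihood test. Levels between genes were compared on the TPM scale. The alternatives were DESeq2 1.42.0 (20997 genes), upper quartile normalization, library size alone, no filter on low counts, a filter of TPM over 0.1 in all libraries, limma 3.58.1 on log2(TPM + 1) and log2(TPM + 0.1), the replicate number as a block, and each library left out. The procedure was tested on simulated counts. No library repeated another, the smallest chi-square per gene between any 2 being 154.

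The 9 genes and the lists were chosen with earlier results of these data known, so no set test was run. The text names the 9 genes, *Sirt6*, up to 3 genes of smallest unadjusted p under 0.05 and the most abundant gene of each list, and the 3 genes most like each of the 3 members with the highest mean CPM. A few genes that this rule names are not reported here. Genes of the marker lists are named where they move with a member, and some others of these lists were named after their values were seen. The lists were pouch and thymus organogenesis, paralogues, epithelial identity, basal epithelium and p63 programme, progenitor markers, the Ly6 cluster, interferon-stimulated genes and markers of cell populations. *Ly6g* was not matched. Positions, exon overlaps and shared 50-base words used GENCODE M21 (GRCm38, which is mm10). Upstream sequences and older symbols came from RefSeq (GRCm38.p6). Python 3.11.15 with pandas 2.3.3 and matplotlib 3.10.9 was used for these steps.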

Additional observations from a re-analysis of the deposited data

How the results depend on the processing

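Of the 9 genes, 7 had at least 1450 counts in every library, but *Tbx1* and *Hoxa3* had at most 91 and 64 counts and had no value under the filter of TPM over 0.1 in all libraries. With 2 libraries per group, intervals for *Trp63*, *Pax1*, *Pax9*, *Eya1* and *Ly6a* remained wide. With 1 library left out, the lone library of its group was assumed to vary like the other group.

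The number of the 9 genes higher at an unadjusted p of 0.05 was 1 under each alternative with 4 libraries and 0 to 1 with 1 library left out, where the 1 was *Epcam* without *Sirt6* cKO 1 and *Hoxa3* without WT 2. The number lower was 0 under each alternative with 4 libraries and 0 to 1 with 1 library left out, where the 1 was *Tbx1* without *Sirt6* cKO 2. The 9 genes had 0 calls at an adjusted p of 0.05 under any alternative.

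In the 7 lists, 16 genes were higher, against 10 with library size alone and 6 (without *Sirt6* cKO 2) to 22 (without WT 2) with 1 library left out. The lists held 3 lower genes, against 5 with DESeq2, 6 with upper quartile normalization, 6 when scaled by library size, 5 with limma on log2(TPM + 1), 5 with limma on log2(TPM + 0.1) and 3 to 5 with 1 library left out. The cause of these shifts was not tested.

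*Pax1* turned from 0.05 to -0.029 when scaled by the upper quartile and to -0.037 when scaled by library size, and ranged from -0.040 to 0.11 with 1 library left out. *Ly6a* turned from 0.07 to -0.0077 and -0.016 under the same scalings and ranged from -0.14 to 0.29 with 1 library left out. *Pax9* ranged from -0.61 to 0.10 and *Usp18* from -0.27 to 0.041 with 1 library left out. None of these values passed the test. Of 106 values of the 9 genes under alternatives, 9 changed sign, 3 lost the unadjusted call (*Epcam* with 1 library left out) and 2 gained it (*Tbx1* and *Hoxa3*).

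Over all genes, libraries that share a replicate number did not deviate together from their group means (correlation -0.05), and the labels name nothing else that they share, so the number was not taken to pair them. The summed proliferation and thymocyte markers nevertheless split by that number, and why was not tested. With the replicate number as a block, *Epcam* kept a log2 fold change of 0.48 and its unadjusted call, 5 genes of the 7 lists were lower, and 697 genes were higher and 449 lower over all genes, against 977 and 615 without it. Over all genes, an adjusted p of 0.05 was passed by 354 genes with DESeq2 and by 0 to 7 under the other alternatives.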
